A study of Mus musculus with 18 samples.

Results

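The genes described here are 10 ligands and receptors of the vascular endothelial growth factor (VEGF) and angiopoietin systems. They are the VEGF receptor genes Flt1, Kdr and Flt4, the co-receptor genes Nrp1 and Nrp2, the angiopoietin receptor gene Tek with its relative Tie1, and the ligand genes Vegfa, Angpt1 and Angpt2. Members were found by gene symbol in the platform's probe table, which gave them 26 of the 45281 probes. A probe was kept when at least 3 of the 18 arrays read above a floor for background, set at an intensity of 109 units (log2 6.77). Of the 26 probes 13 were kept, and they covered 8 of the 10 genes, among 10836 genes tested in all. Kdr and Angpt1 had no kept probe and were not tested.

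The samples were cells with bright green fluorescence, sorted from enzymatically dissociated heart ventricles of mouse embryos with a reporter knock-in of green fluorescent protein at Wt1 (Wt1GFP). Wt1 encodes a transcription factor of the epicardium, which covers the heart. RNA was measured on Illumina bead arrays at daily stages of embryonic development, with 3 arrays a stage and 6 stages. The groups were the stages E11.5, E12.5, E13.5, E14.5, E15.5 and E16.5, all of them carried the same knock-in and were sorted for the same bright signal, and none was treated or lacked the reporter. Whether the 3 arrays of a stage stand for separate litters or pools is not in the labels, and each p-value therefore covers only the spread among these arrays, which may be technical. The sort rested on the Wt1 reporter alone and used no surface marker of another cell type that the labels name.

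VEGF-A binds the receptor tyrosine kinases encoded by Flt1 and Kdr on endothelial cells, the cells that line blood vessels, and neuropilins bind the ligand alongside them. Kdr carries most of the growth signal, Flt1 binds the ligand tightly and signals weakly, and Flt4 serves the related ligands VEGF-C and VEGF-D. Angiopoietin-1 activates Tek (also called Tie2), angiopoietin-2 acts on it as a context-dependent antagonist, and Tie1 has no well-established high-affinity ligand and modulates Tek. In the embryonic heart the epicardium and the heart muscle supply ligands while the coronary vessels grow.

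The promoters of 3 receptor genes are shown because Flt1 and Tie1 rose together over the course while Tek, the partner of Tie1, did not pass the test between the first and the last stage. Each run covers 250 bases before to 50 after the gene's start, 5′ to 3′ on the gene's strand, from RefSeq on build GRCm38.p6. The promoter set at hand listed windows for 8 of the 10 members, and none for Angpt1 or Angpt2. Capitals mark GGAAG, a longer form of the core GGAA that factors of the ETS family bind, on either strand (CTTCC on the other). They also mark the GATA motif AGATAA on either strand (TTATCT on the other). The Flt1 window is chr5:147725962-147726261 on the minus strand, the Tie1 window is chr4:118489800-118490099 on the minus strand, and the Tek window is chr4:94739039-94739338 on the plus strand.
Flt1: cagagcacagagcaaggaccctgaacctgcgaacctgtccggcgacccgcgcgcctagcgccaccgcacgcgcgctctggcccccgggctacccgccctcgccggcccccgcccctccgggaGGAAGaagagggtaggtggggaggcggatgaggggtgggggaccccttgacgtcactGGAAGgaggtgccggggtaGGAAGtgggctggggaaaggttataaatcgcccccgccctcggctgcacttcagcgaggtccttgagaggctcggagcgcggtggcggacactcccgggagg
Tie1: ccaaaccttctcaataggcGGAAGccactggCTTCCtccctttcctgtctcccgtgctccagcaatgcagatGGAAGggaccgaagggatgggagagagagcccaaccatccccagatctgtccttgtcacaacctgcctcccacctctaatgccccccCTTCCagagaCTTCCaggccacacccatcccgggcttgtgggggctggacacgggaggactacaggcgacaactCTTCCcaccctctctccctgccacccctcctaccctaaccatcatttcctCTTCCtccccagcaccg
Tek: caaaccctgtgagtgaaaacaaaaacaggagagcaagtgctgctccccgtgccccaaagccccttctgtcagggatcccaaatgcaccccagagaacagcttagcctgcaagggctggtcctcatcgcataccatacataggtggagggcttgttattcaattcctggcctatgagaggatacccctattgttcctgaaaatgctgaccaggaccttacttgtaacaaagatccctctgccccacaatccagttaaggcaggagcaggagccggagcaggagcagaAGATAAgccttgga
The Flt1 window held 3 GGAAG matches, the Tie1 window held 7, and the Tek window held 0 with 1 GATA motif. Among the other members listed, the window of Nrp1, which was not called between the first and the last stage, held 4 GGAAG matches. Those of Kdr and Flt4 held 1 each, that of Nrp2 held 0, and the 2 windows of Vegfa held 1 and 2. The shorter core GGAA was not counted, and the Tek and Nrp2 windows do hold it (TTCC on the other strand). Angpt2, which also rose, had no window, and whether these matches bear on the changes was not tested. Of 32851 promoters of this length 71.4% held at least 1 GGAAG match, 16% held at least 3 and 0.186% held at least 7. The GATA motif was in 11.2% of them, and ACGTG, the core of the hypoxia response element, was in 19.6% and in none of these 3 windows. GGAAG did not overlap the other motifs in these windows. A match describes these letters and shows no binding.

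Between E11.5 and E16.5 the receptors Flt1 and Tie1 and the ligand Angpt2 rose, the ligand Vegfa fell, and Tek, Nrp1, Nrp2 and Flt4 did not pass the test. A gene was called when its adjusted p (limma, Benjamini-Hochberg over 10836 genes) was under 0.05, and a difference is on the log2 scale of intensities that still include background, which compresses the change of dim genes. Of the 8 members tested 3 were called higher, beside 15.9% of all genes, and 1 lower, beside 18.7%. The median difference of the 8 members was 0.11, and that of all genes was -0.03. A probe's level is set only against its own level at other stages, since different probes bind with different strength. In sorted cells a larger share of a cell type and more RNA per cell cannot be told apart.

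**Figure D1:**
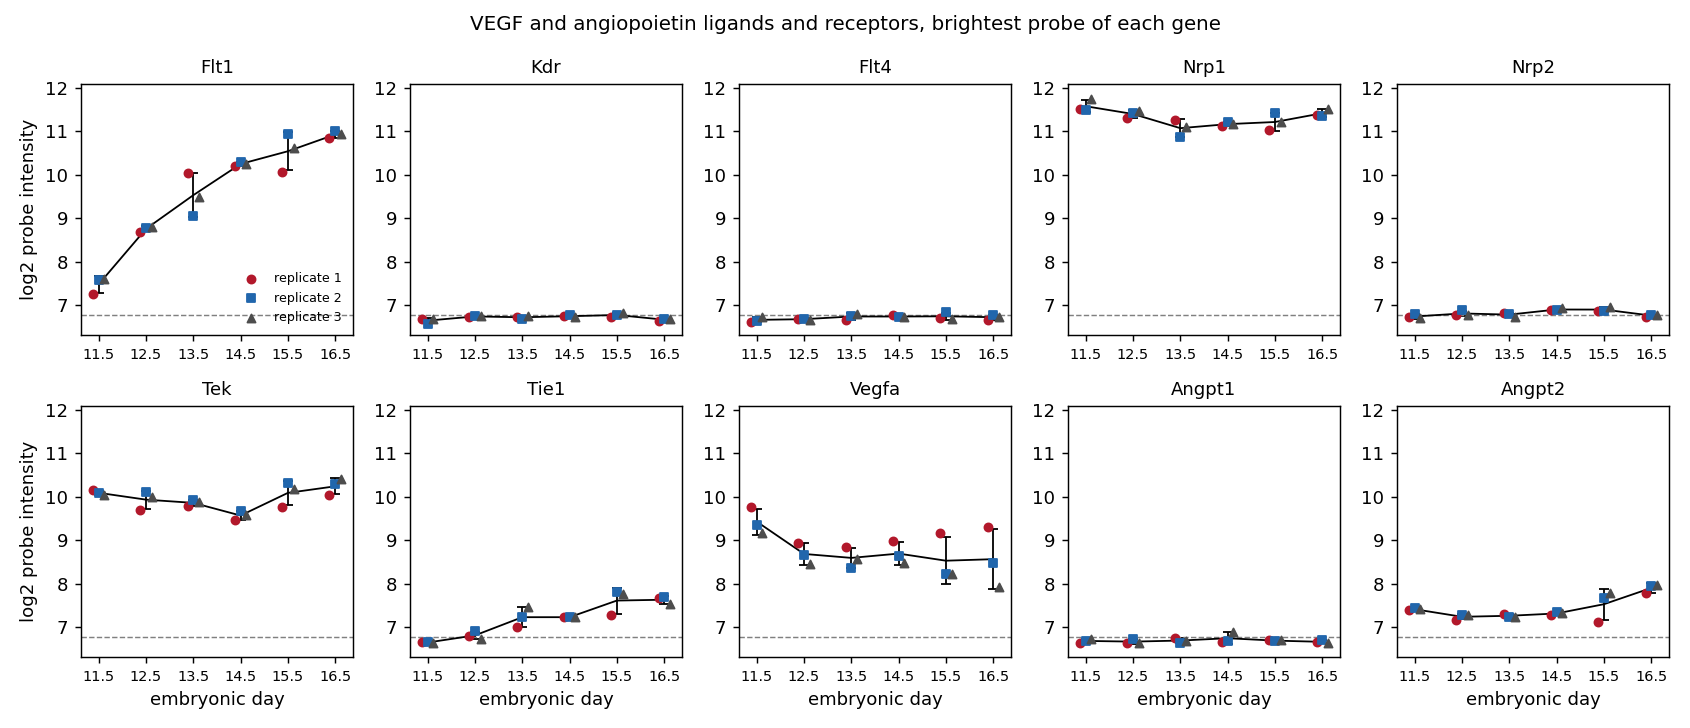
Log2 intensity of the brightest probe of each of the 10 genes against embryonic day, with 1 point per array (shape and colour give the replicate number), the stage mean as a line and bars of 1 SD (n = 3). The dashed line is the background floor at 6.77. Flt1 and Tie1 climb, Vegfa is highest at E11.5, Nrp1 is lowest at E13.5 and Tek at E14.5, and Kdr and Angpt1 stay at the floor.

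Flt1 gave the largest difference among the members. Its brightest probe read 7.26, 7.57 and 7.60 (log2 intensity) on the 3 arrays of E11.5, 8.69, 8.77 and 8.81 at E12.5, and 10.05, 9.05 and 9.49 at E13.5. It read 10.20, 10.30 and 10.25 at E14.5, 10.07, 10.94 and 10.62 at E15.5, and 10.86, 11 and 10.93 at E16.5. Every array of a stage up to E14.5 lay above every array of the stage before, and from E14.5 on the ranges of neighbouring stages overlapped. The stage mean went from 7.48 ± 0.19 (SD, n = 3) to 10.93 ± 0.07 (SD, n = 3), a rise of 3.45 ± 0.22 (SE) or 10.9-fold, with a limma adjusted p of 2.7e-08. The second Flt1 probe, designed on the same transcript record, lay above the floor on 5 arrays, 2 of E15.5 and all 3 of E16.5, and read 6.50 to 6.94. It was also called higher, by 0.24 ± 0.06 (SE, limma adjusted p 0.0040, in a fit on all kept probes), so the size of the Flt1 change rests on 1 probe. Flt1 also has a secreted form that binds ligand, and which form each probe reads was not analysed here.

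The other VEGF receptors stayed near background. Both Kdr probes lay between 6.57 and 6.82, 1 was above the floor on 1 array of E15.5 and the other on 0 arrays. Flt4 had 3 probes, of which 1 was kept, and this probe read 6.62 to 6.83 and was above the floor on 4 of 18 arrays. It differed by 0.06 between E16.5 and E11.5 (95% interval -0.05 to 0.17, limma adjusted p 0.42). These readings show that the probes were not well above background, and they set no level for the transcripts.

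**Figure D2:**
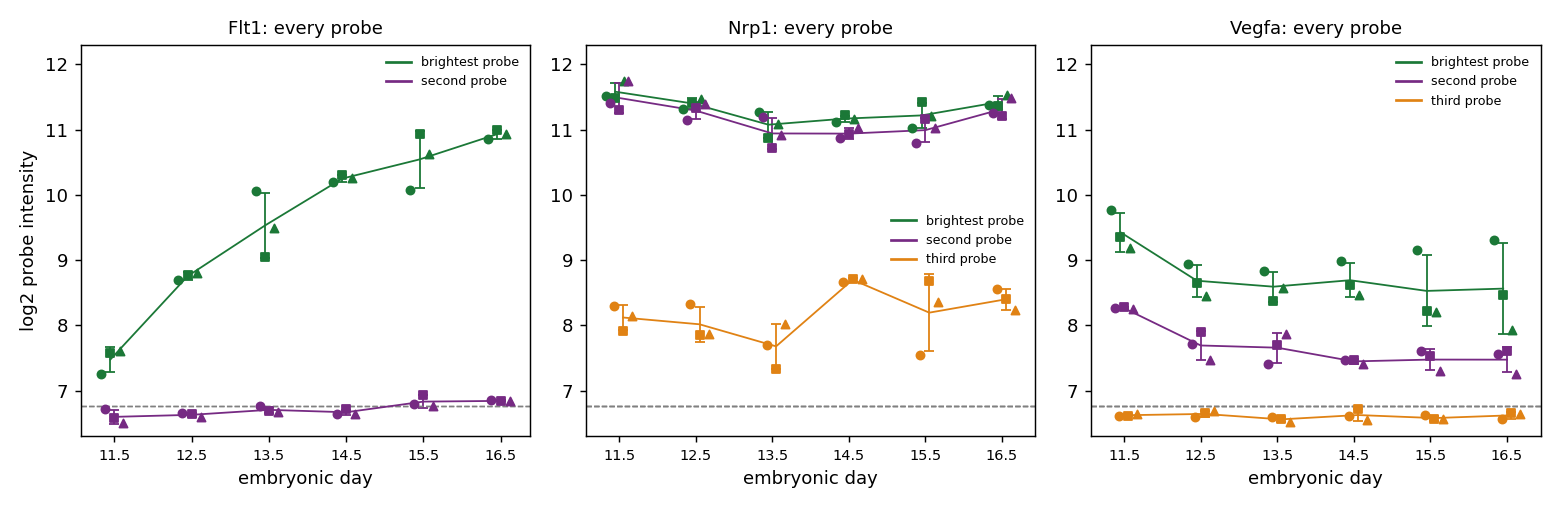
Log2 intensity of every probe of Flt1, Nrp1 and Vegfa against embryonic day, with points for the arrays, lines for stage means and bars of 1 SD (n = 3), and the floor dashed at 6.77. Levels of different probes are not comparable. The second Flt1 probe stays near the floor, the third Nrp1 probe has its own course with a high at E14.5, and the first and the second Vegfa probe are both highest at E11.5.

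Nrp1, a co-receptor for VEGF-A and for class 3 semaphorins, dipped in mid-course. Its brightest probe read 11.52, 11.48 and 11.74 at E11.5, 11.31, 11.41 and 11.47 at E12.5, and 11.27, 10.87 and 11.09 at E13.5. It read 11.12, 11.22 and 11.16 at E14.5, 11.02, 11.42 and 11.21 at E15.5, and 11.37, 11.36 and 11.52 at E16.5. All 3 arrays of E13.5 and of E14.5 lay below all 3 of E11.5, and the ranges of E16.5 and E11.5 overlapped. The F test of equal means in the 6 stages had a limma adjusted p of 0.011, and the difference of E16.5 from E11.5 was -0.16 (95% interval -0.39 to 0.07, limma adjusted p 0.28). With the mean of all 3 Nrp1 probes in place of the brightest the F test had an adjusted p of 0.051.

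The 3 Nrp1 probes did not all run alike. The second probe, on the same transcript record, read 11.48 ± 0.23 at E11.5, 10.94 ± 0.24 at E13.5 and 11.31 ± 0.15 at E16.5 (SD, n = 3 each). The third was designed on a separate cDNA record and read 7.70, 7.33 and 8.01 at E13.5 against 8.67, 8.72 and 8.72 at E14.5. That step of 1.02 ± 0.24 (SE) had a limma adjusted p of 0.034, while the brightest probe differed by 0.09 (adjusted p 0.70 in the same fit). The difference between the probes was not itself tested.

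Nrp2, the neuropilin linked with lymphatic vessels and veins, was dim. It had 6 probes, 2 of them kept, and the brighter one read 6.70 to 6.96 and lay above the floor on 11 arrays. Its stage means were 6.74 ± 0.05 at E11.5, 6.90 ± 0.02 at E14.5 and 6.76 ± 0.02 at E16.5 (SD, n = 3 each). The F test had a limma adjusted p of 0.033, and it was lost without any of 8 single arrays (highest adjusted p 0.074) and with the other kept probe (0.097). The difference of E16.5 from E11.5 was 0.02 (95% interval -0.08 to 0.12, limma adjusted p 0.77), and the other kept probe differed by 0.13 (adjusted p 0.044).

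Tie1 rose from below the floor. It has 1 probe, which read 6.65, 6.65 and 6.64 at E11.5, 6.79, 6.90 and 6.73 at E12.5, and 7.0, 7.24 and 7.45 at E13.5. It read 7.22, 7.22 and 7.24 at E14.5, 7.27, 7.81 and 7.75 at E15.5, and 7.67, 7.70 and 7.52 at E16.5. All arrays from E12.5 on lay above all arrays of E11.5, and no array of E11.5 passed the floor. The measured means differed by 0.99 ± 0.12 (SE, limma adjusted p 2.18e-05), and they differed by 2.21 after a background correction (normexp, offset 16). Tie1 at E16.5 stood at least 1.81-fold above the floor. Here "at least" compares E16.5 with the floor itself, since E11.5 has only a bound.

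Tek, the angiopoietin receptor, was well above the floor at every stage and lowest at E14.5. Its 1 probe read 10.15, 10.08 and 10.05 at E11.5, 9.70, 10.11 and 9.99 at E12.5, and 9.78, 9.92 and 9.87 at E13.5. It read 9.46, 9.66 and 9.59 at E14.5, 9.77, 10.32 and 10.18 at E15.5, and 10.04, 10.29 and 10.40 at E16.5. All 3 arrays of E14.5 lay below every array of every other stage. The F test had a limma adjusted p of 0.0096, and the first and the last stage differed by 0.15 (95% interval -0.13 to 0.43, adjusted p 0.43).

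Vegfa, the ligand of Flt1 and Kdr, was highest at E11.5. Its brightest probe read 9.76, 9.35 and 9.18 at E11.5, 8.94, 8.65 and 8.46 at E12.5, and 8.83, 8.37 and 8.58 at E13.5. It read 8.98, 8.63 and 8.47 at E14.5, 9.16, 8.22 and 8.21 at E15.5, and 9.30, 8.47 and 7.92 at E16.5. Replicate 1 was the highest array of Vegfa in all 6 stages, and at E16.5 it lay within the range of E11.5. The difference of E16.5 from E11.5 was -0.86 ± 0.31 (SE), with a limma adjusted p of 0.044, and it was -0.54 with an adjusted p of 0.21 without replicate 3 of E16.5. The F test of the brightest probe had a limma adjusted p of 0.16, and with the replicate number as a block in the fit it was 0.0045.

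The second Vegfa probe gave a tighter account. It read 8.26, 8.28 and 8.25 at E11.5 and 7.56, 7.61 and 7.26 at E16.5, with no overlap. All 15 arrays from E12.5 on lay below all 3 of E11.5, the highest of them at 7.90. The difference was -0.79 ± 0.13 (SE, limma adjusted p 2.4e-04), and its F test had an adjusted p of 9.9e-04. The third Vegfa probe lay under the floor on all 18 arrays.

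Angpt2, the ligand that antagonises Tek in many settings, was higher in the last stage. Its brightest probe read 7.39, 7.43 and 7.42 at E11.5, 7.17, 7.27 and 7.27 at E12.5, and 7.31, 7.23 and 7.24 at E13.5. It read 7.28, 7.34 and 7.32 at E14.5, 7.12, 7.68 and 7.78 at E15.5, and 7.77, 7.95 and 7.97 at E16.5. The 3 arrays of E16.5 lay above all arrays of E11.5 to E14.5, and at E15.5 replicate 1 lay below them while the other arrays lay above. The difference of E16.5 from E11.5 was 0.49 ± 0.12 (SE) or 1.40-fold, with a limma adjusted p of 0.0052, and the F test had an adjusted p of 0.0032. After the background correction the difference was 0.77. The second Angpt2 probe never passed the floor. Angpt1, the activating ligand, had 3 probes between 6.44 and 6.89, of which 1 passed the floor on 1 array of E14.5.

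Across the 6 stages the F test called 6 of the 8 members, beside 40.7% of all genes. The other members were Vegfa and Flt4, the latter with a limma adjusted p of 0.61. The count of members called ran from 5 to 7 with single arrays left out. It ran from 4 to 7 under the other settings, which include a filter that leaves Tie1 untested. All genes called ran from 3800 to 5930 and from 3449 to 7557 in the same settings.

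The members moved in different parts of the course. In the early window, from E11.5 to E13.5, Flt1 and Tie1 rose and Nrp1 fell. This gave 2 of 8 members higher, beside 8.56% of all genes, and 1 lower, beside 8.74%. Flt1 rose by 2.05 ± 0.22 (SE, limma adjusted p 1.29e-05). Tie1 rose by 0.58 ± 0.12 (SE, limma adjusted p 0.0047), at least 1.37-fold against the floor, and by 1.49 after the background correction. Nrp1 fell by 0.50 ± 0.11 (SE, limma adjusted p 0.0046), and its second probe fell by 0.54 ± 0.14 (adjusted p 0.016), while the third differed by -0.44 ± 0.24 (adjusted p 0.27). The brightest Vegfa probe differed by -0.84 ± 0.31 (SE) with a limma adjusted p of 0.084, although the arrays of the stages did not overlap. Vegfa passed with the replicate number as a block (adjusted p 0.0034), with the mean of its kept probes (0.016) and by its second probe, which fell by 0.60 ± 0.13 (adjusted p 0.0050). Tek differed by -0.23 (95% interval -0.51 to 0.05) and Angpt2 by -0.15 (95% interval -0.41 to 0.11), and neither was called.

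In the late window, from E14.5 to E16.5, the receptors Flt1, Tek and Tie1 and the ligand Angpt2 rose. This gave 4 of 8 members higher, beside 9.87% of all genes, and 0 lower, beside 7.83%. At an unadjusted limma p under 0.05 there were 6 of 8 members, and the share of all genes at that threshold was not counted. Tek rose by 0.67 ± 0.13 (SE, limma adjusted p 0.0031) or 1.59-fold, and Angpt2 rose by 0.59 ± 0.12 (SE, adjusted p 0.0043) or 1.5-fold. Flt1 rose by 0.68 ± 0.22 (SE, limma adjusted p 0.042) and Tie1 by 0.40 ± 0.12 (SE, adjusted p 0.038). Both of these calls ended without any single array of E14.5 or E16.5, with adjusted p up to 0.12 for each, and the Flt1 call ended with the replicate block (0.051). The background correction moved the late rise to 0.70 for Tie1 and 0.94 for Angpt2. Nrp1 differed by 0.25 (95% interval 0.02 to 0.48, adjusted p 0.13), Nrp2 by -0.14 (adjusted p 0.053) and Vegfa by -0.13 (95% interval -0.80 to 0.54).

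The windows themselves differed for 4 members. The late minus the early change was tested in the same limma fit, and 3 of 8 members were higher, beside 6.75% of all genes, and 1 lower, beside 6.28%. For Tek it was 0.90 ± 0.19 (SE, limma adjusted p 0.0047), for Nrp1 0.76 ± 0.15 (adjusted p 0.0041) and for Angpt2 0.74 ± 0.17 (adjusted p 0.0098). For Flt1 it was -1.37 ± 0.30 (SE, limma adjusted p 0.0075), from a late change smaller than the early one. The second Flt1 probe, near the floor, gave 0.07 with an adjusted p of 0.70, and the third Nrp1 probe gave 0.14 with an adjusted p of 0.86. For Tie1 it was -0.18 (95% interval -0.56 to 0.20), and for Vegfa it was 0.71 (95% interval -0.24 to 1.65). The background correction moved the Angpt2 value to 1.22, and the mean of both kept probes moved the Flt1 value to -0.65, both still called. In the same contrast 12 of 18 endothelial markers were called lower, with a median of -1.44, and 8 of 12 epicardial markers were called higher, with a median of 1.40. Of the markers of mural cells 5 of 8 were called lower, with a median of -0.42, and of heart muscle 5 of 16, with a median of -2.29. Taken by window, the endothelial markers were called higher in 18 of 18 early (median 2.05), beside 8.56% of all genes. In the late window 14 of them were called higher and 1 lower (median 0.82), beside 9.87% and 7.83%. The part of these cell types in the differences was not tested.

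**Figure D3:**
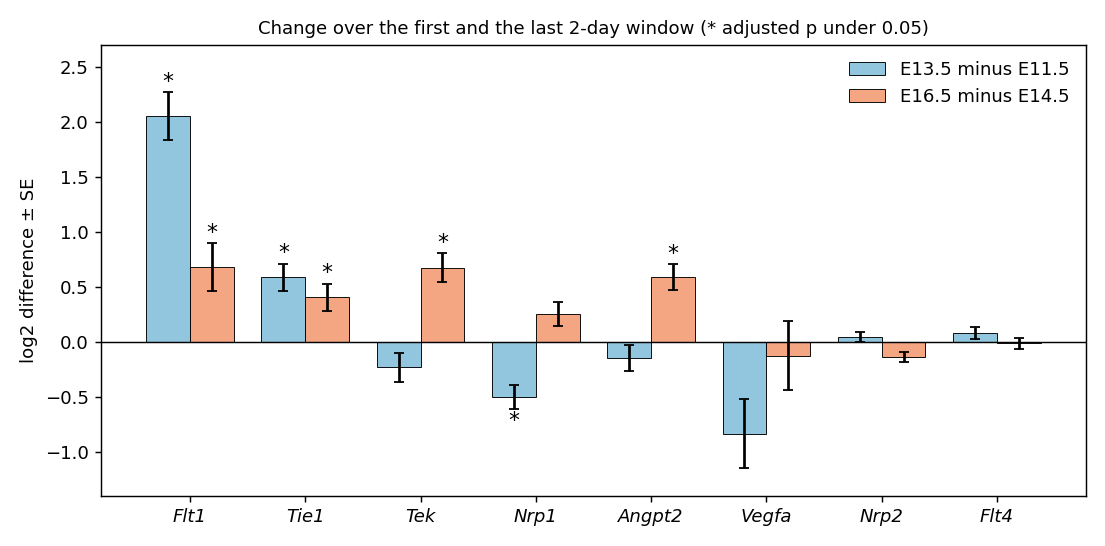
Log2 difference of the 8 tested members over the early window (E13.5 minus E11.5, blue) and the late window (E16.5 minus E14.5, orange), with bars of 1 SE from the limma fit over 18 arrays and an asterisk at an adjusted p under 0.05. Tek, Nrp1 and Angpt2 differ downward early and upward late, and the Flt1 bar is taller early.

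Among the steps of 1 day, Flt1 from E11.5 to E12.5 was the only call on the brightest probe of a member, a rise of 1.28 ± 0.22 (SE, limma adjusted p 0.0021), beside 3.27% of all genes called higher in that step. Replicate numbers paired the arrays of these 2 stages. With the replicate block the brightest Vegfa probe was also called (-0.74 ± 0.16 SE, limma adjusted p 0.015, against 0.23 without the block). The second Vegfa probe fell by 0.57 ± 0.13 (SE, limma adjusted p 0.017) with no block, in the fit on all kept probes. In the other 4 steps 0 of 8 members were called by limma on the brightest probe. At an unadjusted limma p under 0.05 there were 3, 3, 2 and 2 members, and all genes were not counted at that threshold. Among the other kept probes the third of Nrp1 was called in these steps, from E13.5 to E14.5 (1.02, adjusted p 0.034). At an adjusted p under 0.05 all genes were called in 4.86%, 4.57%, 2.53% and 0.443% of cases in those steps. The members nearest to a call were Tek from E14.5 to E15.5 (0.52 ± 0.13 SE, limma adjusted p 0.052) and Flt1 from E12.5 to E13.5 (0.78 ± 0.22 SE, adjusted p 0.054).

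Markers of other cell types changed over the same arrays. Of 20 endothelial markers 18 were measured, with Erg and Ecscr not above the floor on enough arrays. All 18 were called higher at E16.5 than at E11.5, beside 15.9% of all genes. Their mean log2 intensity was 7.07 ± 0.05, 8.44 ± 0.16, 9.23 ± 0.13, 9.65 ± 0.11, 10.09 ± 0.51 and 10.42 ± 0.14 from E11.5 to E16.5 (SD, n = 3 each). At E11.5 between 5 and 11 of the 18 lay under the floor on an array, and at later stages 0 did. Their summed intensity ran from 2800 to 2829 at E11.5 and from 32047 to 39391 at E16.5. Cells of the lymphatic lining were less well covered, since Lyve1 and Mmrn1 were not above the floor on enough arrays. Of the 3 markers measured (Prox1, Pdpn, Reln) 0 were called between E11.5 and E16.5 by limma, with 0 at an unadjusted p under 0.05. Within the course 1 was called higher and 1 lower in the early window, beside 8.56% and 8.74% of all genes. The late window likewise gave 1 and 1, beside 9.87% and 7.83%. The F test called 2 of the 3, beside 40.7%. Pdpn was lowest at E14.5 (10.26), as the epicardial markers were, and Prox1 was highest there (7.68), as the heart muscle markers were. Whether these 3 genes report lymphatic cells here was not tested.

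The epicardial markers were lowest in mid-course. Of 13 markers 12 were measured, and their mean log2 intensity went from 9.24 ± 0.11 at E11.5 to 8.11 ± 0.06 at E14.5 and 9.04 ± 0.17 at E16.5 (SD, n = 3 each). In the early window 7 of 12 were called lower and 1 higher, beside 8.74% and 8.56% of all genes. In the late window 9 were called higher and 0 lower, beside 9.87% and 7.83%. Their summed intensity was 14066 to 14540 at E11.5, 4779 to 5153 at E14.5 and 8030 to 10575 at E16.5. Tek was lowest in the stage where these markers were lowest, and the brightest Nrp1 probe in the stage before. The mean of the second Nrp1 probe was 10.94 at both E13.5 and E14.5. The part of epicardial cells in those changes was not tested.

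Heart muscle markers differed most between arrays of 1 stage. All 16 were measured, and their mean log2 intensity was 9.01 ± 0.19 at E11.5, 10.85 ± 0.09 at E14.5 and 9.77 ± 1.02 at E16.5 (SD, n = 3 each). Replicate 1 of E15.5 and of E16.5 read 11.13 and 10.94, and the remaining 4 arrays of those stages read 9.0 to 9.33. At E15.5 replicate 1 was also the lowest array for Flt1, Nrp1, Tek, Tie1 and Angpt2 and the highest for Vegfa. Without those 2 arrays the difference of E16.5 from E11.5 was 3.49 for Flt1, 0.97 for Tie1, 0.55 for Angpt2 and -1.23 for Vegfa, all called (limma adjusted p 0.00061 for Vegfa). The late rise was then 0.78 for Tek and 0.65 for Angpt2, both called. The arrays of E14.5 were all high in these markers and have no counterpart within their stage, so at E14.5 muscle content and stage cannot be told apart.

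**Figure D4:**
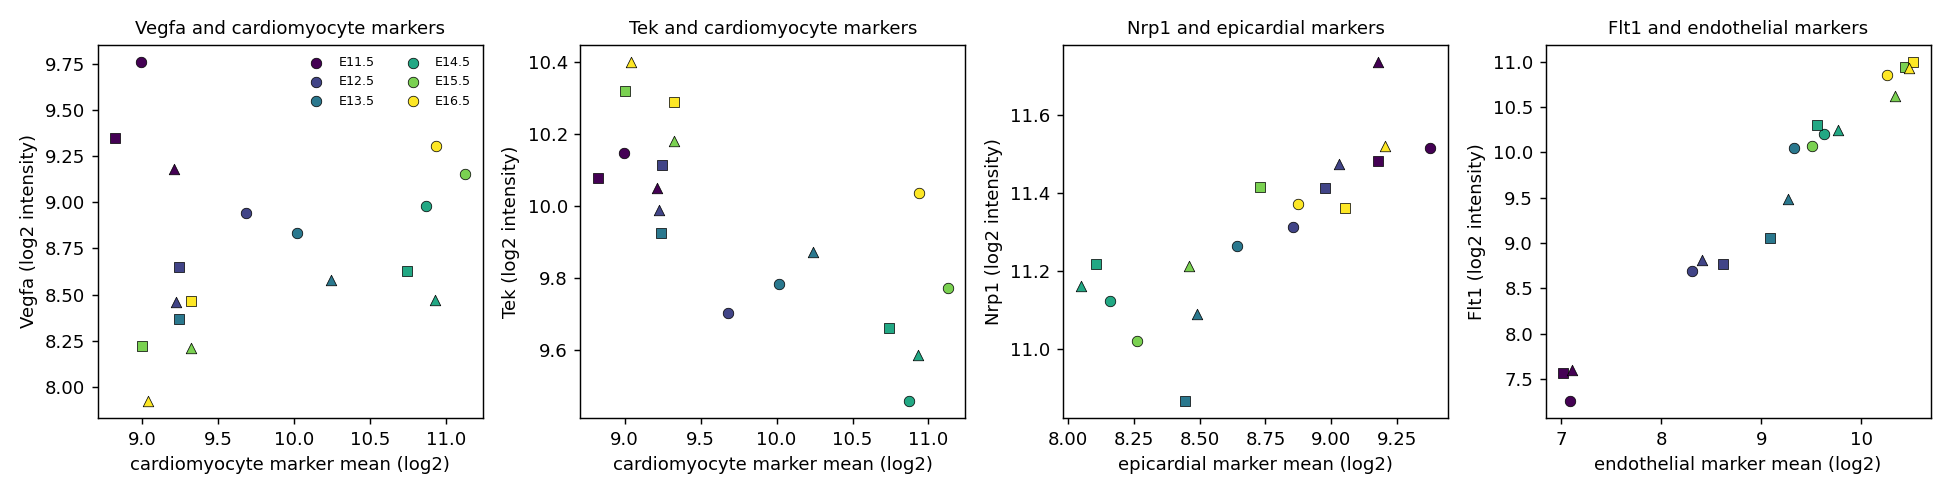
Log2 intensity of Vegfa, Tek, Nrp1 and Flt1 on each of the 18 arrays (colour gives the stage, circle, square and triangle give replicates 1, 2 and 3) against the mean log2 intensity of a marker list on the same array. The pairs were chosen after their values were seen. Flt1 runs along the endothelial mean from E11.5 at lower left to E16.5 at upper right, and the late arrays with high heart muscle markers are low in Tek and high in Vegfa for their stage.

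Markers of other cells in the ventricle were counted between E11.5 and E16.5 as well. Over all genes 15.9% were called higher and 18.7% lower. Of 8 erythroid markers 7 were measured, 5 were called higher and 1 lower, and their mean log2 intensity was 7.14 ± 0.55 at E11.5 and 9.59 ± 0.20 at E16.5 (SD, n = 3 each). Of 8 leukocyte markers 3 were measured and 2 called higher, at 6.74 ± 0.04 and 7.64 ± 0.10, and Ptprc, the general leukocyte antigen, was not above the floor on any array. Of 10 markers of mural cells, the smooth muscle cells and pericytes that support vessels, 8 were measured, 2 were called higher and 1 lower, at 7.48 ± 0.07 and 7.72 ± 0.12. Of 8 fibroblast markers 7 were measured, 5 were called higher and 1 lower, at 9.74 ± 0.10 and 10.49 ± 0.07. The mural counts lay near the shares of all genes. What part these cell types had in the changes of the members was not tested.

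Each member was also set against the endothelial mean of its own array. The Flt1 value minus the endothelial mean was 0.41 ± 0.21 at E11.5 and 0.51 ± 0.08 at E16.5 (SD, n = 3 each), a difference of 0.10 (exact permutation test, 2-sided p 0.7). The differences were -2.36 for Tie1, -2.86 for Angpt2, -3.20 for Tek, -3.51 for Nrp1 and -4.21 for Vegfa. These are differences of measured values and give no exact size. The E11.5 end is limited by background, since 5 to 11 of the 18 markers, and Tie1 itself, lay under the floor on each E11.5 array. Each of these 5 had an exact permutation p of 0.1, the smallest that 3 arrays against 3 allow, and 0.114 after adjustment over the 8 members. No member could have passed at 0.05. The test therefore does not decide whether Flt1 or any other member moved with the endothelial mean. The values moved with the background step and the probe rule, and for Flt1 they ran from -1.05 with the mean of all kept probes to 0.44 without a filter.

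The genes whose pattern was most like each member over the 18 arrays were taken by Pearson's r among all genes tested, as a description in which all points share the arrays and their normalization. For Flt1 they were Icam2 (r 0.991), an endothelial adhesion molecule, Mmrn2 (r 0.991), an endothelial matrix glycoprotein, and Grasp (r 0.989). For Tie1 they were H2-D1 (r 0.988), a class I histocompatibility gene with close relatives that can share probe sequence, Pecam1 (r 0.983), an endothelial adhesion molecule, and Ostf1 (r 0.981). Icam2, Mmrn2 and Pecam1 also stand on the endothelial marker list.

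The other called members had looser neighbours. For Tek they were Vamp3 (r 0.909), a vesicle fusion protein, Nod1 (r 0.907), a sensor of bacterial cell wall, and Khk (r 0.904), which phosphorylates fructose. For Nrp1 they were Clcn3 (r 0.907), a chloride exchanger of vesicles, Cxadr (r 0.903), a junction protein, and Enpp4 (r 0.895). For Angpt2 they were Agpat4 (r 0.933), a lipid acyltransferase, Arsa (r 0.923), a lysosomal sulfatase, and St3gal6 (r 0.921), a sialyltransferase. For Nrp2 they were Mug-ps1 (r 0.842), Rasl12 (r 0.835) and Iqgap2 (r 0.789).

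The other ligands of these receptors were measured on the same arrays. Between E11.5 and E16.5 the ligands Vegfc and Pgf rose, and Vegfb and Vegfd did not pass the test, so 2 of 4 measured were called higher, beside 15.9% of all genes. Vegfc, the ligand of Flt4, rose from 8.61 to 9.49 (log2 intensity), a difference of 0.88 ± 0.15 (SE, limma adjusted p 3.6e-04). Pgf, which encodes placental growth factor, a ligand of Flt1, was under the floor at E11.5 and ended at least 1.44-fold above it (adjusted p 1.17e-05). Vegfb, another Flt1 ligand, differed by -0.13 (adjusted p 0.78), Vegfd by 0.01 (adjusted p 0.93), and Angpt4 was not above the floor on any array.

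Among 18 co-receptors and regulators at the cell surface or in the matrix 14 were measured, 3 rose and 2 fell between E11.5 and E16.5, beside 15.9% of all genes called higher and 18.7% lower, so both shares lay near those of all genes. Plxnd1, a semaphorin receptor of endothelial cells that partners with neuropilins, rose by 3.69 ± 0.28 (SE, limma adjusted p 1.49e-07). Ptprb, the vascular phosphatase that acts on Tek, rose by 2.15 ± 0.24 (SE, adjusted p 7.95e-06). The third to rise was the tetraspanin gene Cd63, by 0.43, and the genes that fell were Amotl2, by 0.51, and Sema3a, a semaphorin that binds Nrp1, by 0.52. The median of the 14 was 0.11. The genes of under 1 log2 unit here were named after their values were seen.

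Of 22 signal transducers 16 were measured, 8 rose and 2 fell, beside the same 15.9% and 18.7% of all genes, with a median of 0.12. Arhgef15 rose by 2.45 ± 0.20 (SE, limma adjusted p 3.48e-07). Rasip1, a Ras-interacting protein needed for vessel lumens in mice, rose by 2.39 ± 0.22 (SE, adjusted p 8.24e-07). Pik3r1, a regulatory subunit of phosphoinositide 3-kinase, rose by 1.28 ± 0.11 (SE, adjusted p 6.64e-07). Plcg1, Akt1 and Shb, which act near the receptors, were not above the floor on any array.

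A list of 15 genes known to respond to VEGF or angiopoietin signals was put together by hand with earlier results of these data known. Of these 13 were measured and 12 were called higher between E11.5 and E16.5, beside 15.9% of all genes, with a median difference of 1.74 beside -0.03 over all genes. Nos3, the endothelial nitric oxide synthase, was under the floor at E11.5 and then at least 6.05-fold above it (limma adjusted p 5.31e-07). Klf2, a flow-responsive factor, rose by 2.73 ± 0.23 (SE, adjusted p 4.32e-07), Egr3 by 2.47 ± 0.50 and Esm1, a tip cell gene, by 2.03 ± 0.24. Aplnr, the apelin receptor, was at least 3.61-fold higher, Hlx at least 3.15-fold and Dll4, a Notch ligand of tip and arterial cells, at least 1.87-fold. Sox17 was at least 4.99-fold higher, and Ets1 rose by 1.72 ± 0.28 and Foxo1 by 1.01 ± 0.12. Spry4 differed by 0.20 (adjusted p 0.28). Most of these genes mark endothelial cells as well, and Sox17 and Plvap also stand on the endothelial list, whose 18 markers had a median difference of 3.30.

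Of 7 oxygen-sensing regulators of Vegfa all were measured and 2 rose between E11.5 and E16.5, beside 15.9% of all genes. Egln3, a prolyl hydroxylase that is itself induced by low oxygen, rose by 1.61 ± 0.16 (SE, limma adjusted p 2.72e-06). Epas1, which encodes a hypoxia-inducible factor, was under the floor at E11.5 and at least 1.06-fold higher (adjusted p 0.036). Hif1a differed by -0.07 (adjusted p 0.47) and Arnt by 0.17 (adjusted p 0.59).

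**Figure D5:**
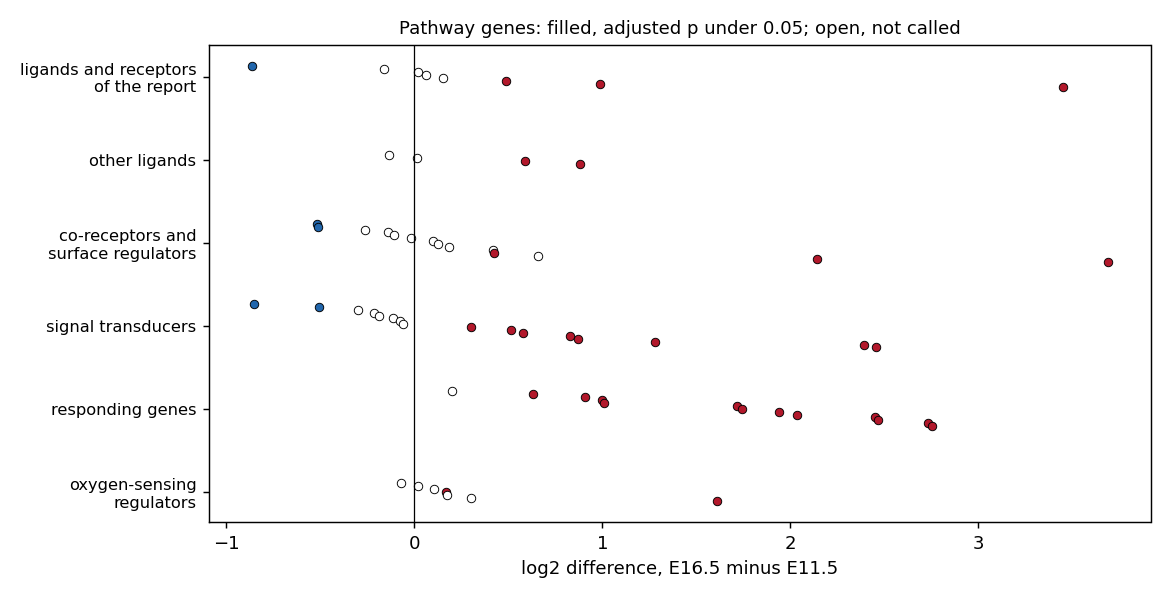
Log2 difference of E16.5 from E11.5 for each measured gene of the 10 ligands and receptors and of 5 lists of related genes, 1 point per gene, filled where the limma adjusted p was under 0.05 (red higher, blue lower) and open otherwise. Flt1 at 3.45 and Plxnd1 at 3.69 lie farthest to the right, and 12 of 13 responding genes are red.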

How the data were processed

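RNA of 18 sorted samples was measured on Illumina bead arrays. The table the authors deposited holds linear probe intensities. The submitters' processing notes name GenomeStudio 2011.1. How the values were normalized, background-corrected or filtered is not given in the sources used here, apart from that name. The sorted values of the 18 arrays differed by at most 2.04 units (range 83.8 to 17358, median 104), so the deposited intensities share 1 distribution. A second table with 18 signal and 18 detection p columns was not used, since its running numbers match no label, and a floor set on the intensities replaced detection p. No build is given for the probes, so no probe position is printed.

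Background had its mode at 99.2 units and an SD of 0.060 (log2), and the floor is its upper tail of 0.01. The filter kept 20016 of 45281 probes. The probe table gave 34885 probes 1 symbol, 18 several and 10378 none, and 34807 matched RefSeq by Entrez number with 0 symbols changed. A gene was represented by its brightest kept probe, as 4177 of 10836 had several. Log2 intensities were fitted with limma 3.58.1 (lmFit, contrasts, eBayes) in R 4.3.3, with 1 mean per stage, no covariate and 12 residual degrees of freedom, and the fit was tested on simulated data. Figures were drawn with matplotlib 3.10.9 in Python 3.11.15. All 10 members were named, as were pathway genes called with a log2 difference of at least 1, every other ligand, and the 3 genes with the highest r for each member called in the F test. Members and lists were chosen with earlier results of these data known. Precision is limited by the number of arrays, and dim genes are limited by their signal over background. Arrays of 1 stage correlated at 0.961 or more.

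Replicate numbers come from the titles. Same-numbered arrays deviated together, with r over 0.1 in 3 of 3 pairs, for E11.5 with E16.5 (r 0.207 to 0.293), E11.5 with E12.5 (0.219 to 0.467) and E15.5 with E16.5 (0.361 to 0.732), so the numbers pair those stages. Over all stages 32 of 45 pairs had r over 0.1 (-0.252 to 0.732), and the pairs of the other stages compared did not all pass. Alternatives changed the normalization, background step, filter, probe rule, array weights, prior, replicate block and arrays left out.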

Additional observations from a re-analysis of the deposited data

Results flagged for a closer look

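For 4 members the change over the last 2 days (E14.5 to E16.5) differed from that over the first 2 (E11.5 to E13.5) when the difference itself was tested in the limma fit. For Tek the late minus the early change was 0.90 on the log2 scale (adjusted p 0.0047), from -0.23 early and 0.67 late. For Nrp1 it was 0.76 (adjusted p 0.0041), from -0.50 early and 0.25 late, and a dimmer probe on a separate cDNA record gave 0.14. For Angpt2 it was 0.74 (adjusted p 0.0098), from -0.15 early and 0.59 late. For Flt1 it was -1.37 (adjusted p 0.0075), from 2.05 early and 0.68 late, and its second probe, near the floor, gave 0.07. Over the same windows the epicardial markers were called lower in 7 of 12 and then higher in 9 of 12. The endothelial markers were called higher in 18 of 18 (median 2.05), and then higher in 14 and lower in 1 (median 0.82). For the late minus the early change 8 of the 12 epicardial markers were called higher (median 1.40). Called lower in it were 12 of 18 endothelial markers (median -1.44), 5 of 8 mural markers (median -0.42) and 5 of 16 heart muscle markers (median -2.29). Over all genes 8.56% were called higher and 8.74% lower early, and 9.87% and 7.83% late. For the late minus the early change these shares were 6.75% and 6.28%. The part of cell composition in the differences of the 4 members was not tested. All 4 kept their direction and stayed called without any single array.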

How the results depend on the processing

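Of 1138 values of the members recomputed under other settings 1046 kept their direction and their side of the threshold, 50 were no longer called, 28 became called and 14 turned their sign. Of these 14, 13 were called in neither setting, and the other was the late minus early change of Flt1 by its second probe, 0.067. By another probe Nrp1 gave 0.28 between E11.5 and E16.5 and -0.30 in the late window, Nrp2 gave 0.11 in the late window and 0.060 for late minus early, and late Vegfa gave 0.026. Late Vegfa was also 0.016 without replicate 1 of E14.5 and 0.19 without replicate 3 of E16.5, in a range of -0.50 to 0.19 with single arrays left out. Flt4, near the floor, gave 0.043 in the late window and 0.025 for late minus early without a filter. Its late value was 0.013 with array weights, without the 2 late arrays of raised heart muscle markers and without replicate 1 of E16.5, and 0.0021 without replicate 1 of E14.5, in a range of -0.044 to 0.013 with single arrays left out. The fit on other probes was added after seeing the data. Where values changed, the cause was not tested.

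The count of members lower at E16.5 went from 1 to 0 with cyclic loess, without a filter and with only the arrays compared, and it was 0 to 1 with single arrays left out, where Vegfa lost its call without any of 9 arrays. In the early window members higher went from 2 to 1 with only probes above the floor on all arrays, which leaves Tie1 untested, and members lower from 1 to 2 with the mean of kept probes, array weights or the replicate block, to 3 without the 2 late arrays of raised heart muscle markers, and 1 to 2 with single arrays left out. In the late window members higher went from 4 to 2 without a filter and 2 to 4 with single arrays left out. Members lower there went from 0 to 1 with normexp at offset 16 or 50, without a filter, with array weights and with an intensity trend, and 0 to 1 with single arrays left out. For the late minus early change members lower went from 1 to 2 with normexp at offset 16 and with an intensity trend.

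With array weights 7557 genes were called in the F test in place of 4415, 2107 higher and 2023 lower in the early window, 1853 and 1911 in the late window, and 1627 and 1771 for the difference of the windows. With the strict filter 697 genes were higher in the late window. With single arrays left out, genes higher and lower ran from 635 to 1597 and 570 to 1656 early, 630 to 1286 and 417 to 1235 late, and 568 to 1173 and 479 to 1228 for their difference, and each high end but those of the late window came without replicate 1 of E13.5. Cyclic loess moved the share of calls that were higher from 45.99% to 57.03% between E11.5 and E16.5 and from 55.74% to 66.98% in the late window. No setting moved the median of all genes by over 0.1.

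In steps of 1 day, members lower from E11.5 to E12.5 went to 1 with array weights or the replicate block and 2 without the 2 late arrays. From E12.5 to E13.5 members higher went to 1 with cyclic loess, the strict filter or an intensity trend and 2 with normexp, array weights or without the 2 late arrays, and members lower to 1 with array weights. From E13.5 to E14.5 members higher went to 3 with array weights and 1 without the 2 late arrays, and members lower to 1 with array weights. From E14.5 to E15.5 members higher went to 1 with cyclic loess, normexp at offset 50, the mean of kept probes or the replicate block, 4 with array weights and 3 without the 2 late arrays. From E15.5 to E16.5 members lower went to 1 with array weights. With single arrays left out these counts ran from 0 to 2 higher and 0 to 1 lower at E13.5, 0 to 1 higher at E14.5 and 0 to 3 higher at E15.5.

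The replicate block left the members at 3 higher and 1 lower between E11.5 and E16.5. It made Vegfa called in the F test (adjusted p 0.0045) and in the early window (0.0034), made it called from E11.5 to E12.5 (0.015) and ended the late call of Flt1 (0.051). Normexp at offset 16 raised the difference of E16.5 from E11.5 to 4.17 for Flt1, 2.21 for Tie1 and 0.77 for Angpt2. The values relative to the endothelial mean ran from -1.05 to 0.44 for Flt1, -2.46 to -1.92 for Tie1, -3.82 to -2.41 for Angpt2, -4.43 to -2.75 for Tek, -4.75 to -2.92 for Nrp1 and -5.63 to -3.73 for Vegfa. Array weights were not run for the values relative to the endothelial mean, which use plain means.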
